A study of Mus musculus with 12 samples.

Results

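Synaptic vesicle release genes are the 39 genes described here, chosen by name for known roles in loading, docking, priming and fusing synaptic vesicles. All 39 were found by gene symbol among the 52636 genes of each count table. They fell into 6 roles, which were 6 SNARE and SNARE disassembly genes, 9 calcium sensors and related C2 domain proteins, 3 complexins, 9 priming and active zone genes, 9 vesicle proteins with Rab3 genes, and 3 vesicular glutamate transporters.

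Neurons release transmitter when SNARE proteins on the vesicle and on the plasma membrane zip together and fuse the membranes. Priming proteins of the active zone, such as Munc13 and RIM, ready the vesicle, complexins hold the partly zipped complex, and synaptotagmins couple calcium entry to fusion. Granule cells of the dentate gyrus send mossy fibres to CA3 and load glutamate mainly with VGLUT1, the product of Slc17a7.

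Bulk RNA sequencing was done on total RNA of mouse dentate gyrus, which is the part of the hippocampus where granule cells lie. All mice were labelled C57BL/6, with no age given. The 4 groups, of 3 libraries each, were knockouts of the follistatin gene Fst (KO), wild types (WT), a group labelled overexpressing that received the vector AAV9-CB::Fst (Fst vector), and KO mice that received AAV9-CB::GFP (GFP vector). Activins are growth factors of the TGF-beta family, and secreted follistatin traps them. The labels give no genotype for the Fst vector group, name the promoter only as CB, and can be read as pooling mice within a library, so p-values measure the spread between libraries, which may be technical. KO and WT were in one deposited table and the vector groups in another. Levels set across the tables are therefore described without a test.

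Libraries held 8081824 to 11331337 counts. Counts of Fst followed the labels, with 2, 4 and 2 in KO, 34, 33 and 51 in WT, 2078, 1870 and 1497 in the Fst vector group, and 0, 1 and 0 in the GFP vector group. Titles and descriptions gave a different sex for F1 and M2 of both KO and WT. Library names follow the titles, and the F libraries had 1214 to 1785 CPM (counts scaled to 1000000 per library) of the female transcript Xist, against 0.525 CPM or less in the others. Prox1, which marks granule cells, was at 225.9 to 456.6 CPM in all 12 libraries. GFP vector F stood apart, with Gfap, an astrocyte filament gene, at 4864 CPM against 566.3 and 1555 CPM in the other GFP vector libraries. Ribosomal RNA took 0.575 to 0.679% of counts in KO M2, WT F1, Fst vector M2, Fst vector F and GFP vector M2, and 0.0211% or less in the remaining libraries.

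The release genes covered a wide range of transcript level. Scaled to exon length and averaged over the 12 libraries, Cplx2, the main complexin gene of forebrain excitatory neurons, was first at 420 CPM per kb and Slc17a7 was next at 285 CPM per kb. The SNARE genes Vamp2 and Snap25 had 200.9 and 158 CPM per kb, and Rab3a, a vesicle GTPase, had 168 CPM per kb. On this scale the libraries of Rab3a overlapped those of both SNARE genes, while every library of Vamp2 (177.2 to 216.7 CPM per kb) was above every library of Snap25 (146.1 to 171.6 CPM per kb). Among the calcium sensors, Syt7, Rph3a, Syt13 and Syt1 lay close together at 118.5, 96.3, 95.4 and 92.7 CPM per kb, with overlapping libraries.

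Several relatives of these genes were scarce in the same tissue. Syt2, the fast sensor of many inhibitory and hindbrain synapses, had 0.817 CPM per kb, and Cplx3, known from retinal ribbon synapses, had 0.702 CPM per kb. The other glutamate transporters, Slc17a6 (VGLUT2) and Slc17a8 (VGLUT3), had 0.319 and 0.203 CPM per kb. Slc17a8 rested on 2 to 16 counts per library and failed the filter on low counts in KO against WT.

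**Figure D1:**
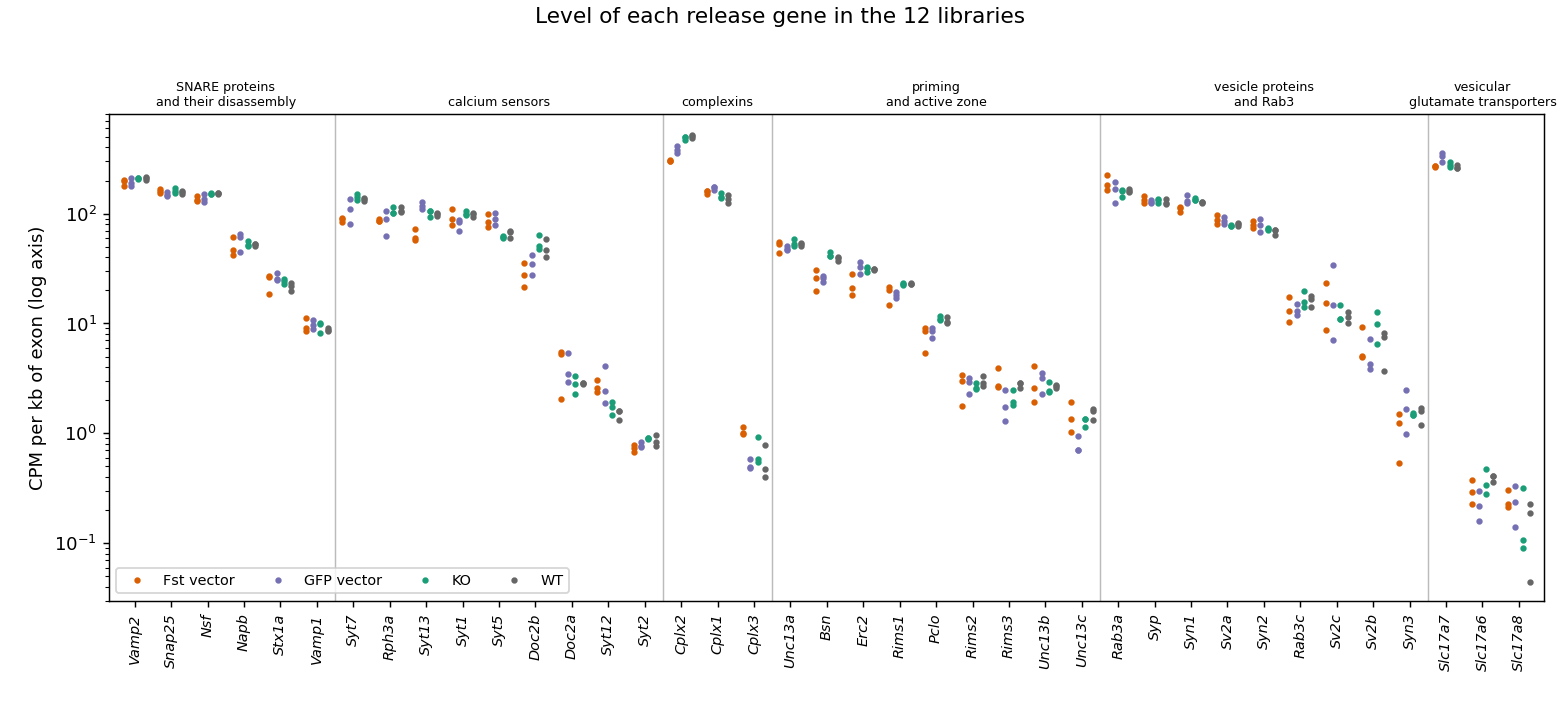
Level of each of the 39 release genes, as CPM per kb of exon on a log axis, by role. Points are single libraries of the Fst vector, GFP vector, KO and WT groups, and the highest mean level (Cplx2, 420 CPM per kb) and the lowest (Slc17a8, 0.203 CPM per kb) frame the range.

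Against the GFP vector group, the Fst vector group had lower levels of the synaptotagmin Syt13, the active zone scaffold Erc2, the complexin Cplx2, the synapsin Syn1 and the transporter Slc17a7 in all of its libraries. Cplx3, Unc13c and Rims3 were higher in all of its libraries. None of these differences passed the adjusted threshold of 0.05 in edgeR's quasi-likelihood test over all genes, which called 0 of 39 members and 12 of 15034 genes (0.0798%). Before adjustment, 8 of 39 members (20.5%) had a p under 0.05, 3 higher and 5 lower, against 9.51% of all genes tested. DESeq2 called 1 of 39 members and 250 of 15034 genes (1.66%).

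Syt13 encodes an atypical synaptotagmin that does not bind calcium, although it is grouped here with the sensors. It had 272.3, 225.3 and 215.3 CPM in the Fst vector libraries M1, M2 and F, against 484.0, 412.8 and 443.4 CPM in GFP vector M1, M2 and F. Each Fst vector library was below each GFP vector library by a wide margin. The log2 change was -0.95 ± 0.14 (SE; 95% interval -1.27 to -0.62), or 0.519 times the GFP vector level (edgeR quasi-likelihood, adjusted p = 0.101). In tissue RNA, fewer cells of a type and less RNA per cell cannot be told apart.

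The estimate for Syt13 changed little with the model, while its call did not hold across models. Same-named vector libraries deviated together for M1 and F and only weakly for M2, and this pairing was taken from the data. With the replicate block that pairs libraries by name the change was -0.95 ± 0.10 and passed (edgeR quasi-likelihood, adjusted p = 0.0111). That fit called 0.938% of genes. Syt13 also passed with DESeq2 (adjusted p = 1.21e-06; 1.66% of genes called), with sex as a term in edgeR (adjusted p = 0.022; 0.878%) and with the spread shared over the 12 libraries in edgeR (adjusted p = 4.33e-04; 2.64%). In the edgeR fits that left out each library in turn, its adjusted p was 0.0866 to 0.503. With the share of ribosomal RNA as a term it was 0.127 in edgeR, in a fit of all 6 libraries. In the libraries of low share, chosen after the data were seen, Syt13 was at -0.79 ± 0.26. That fit set the single library Fst vector M1 against GFP vector M1 and F and called 0 of 15916 genes, so it gives a value and no evidence on the call.

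The complexins, small proteins that clamp and then promote SNARE fusion, did not all lie on the same side of 0. Cplx2 had 1514, 1479 and 1482 CPM in Fst vector M1, M2 and F, against 2039, 1749 and 1871 CPM in GFP vector M1, M2 and F. The Fst vector libraries were within a narrow band below all GFP vector libraries, and Cplx2 was at -0.38 ± 0.13 on the log2 scale (edgeR quasi-likelihood, adjusted p = 0.409). Cplx1 was also lower in each Fst vector library, at 345.2 ± 11.2 CPM against 374.4 ± 10.6 CPM (SD, n = 3 each), with a log2 change of -0.15 ± 0.11. Cplx3, at 34, 29 and 27 counts, or 3.34, 2.94 and 2.99 CPM, in Fst vector M1, M2 and F, stood above its 14, 15 and 15 counts, or 1.73, 1.46 and 1.43 CPM, in GFP vector M1, M2 and F. Its log2 change was 0.97 ± 0.30 (edgeR quasi-likelihood, adjusted p = 0.351). Summed over the 3 genes, complexins took 1814 to 1866 CPM in the Fst vector libraries and 2132 to 2402 CPM in the GFP vector libraries, most of it from Cplx2.

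Estimates of active zone genes lay on both sides of 0. Erc2, or ELKS2/CAST, is a scaffold that binds RIM and Piccolo. It had 177.4, 204.9 and 273.8 CPM in Fst vector M1, M2 and F, against 277.2, 316.6 and 354.5 CPM in GFP vector M1, M2 and F. The groups were separated only narrowly, by Fst vector F and GFP vector M1, and the log2 change was -0.57 ± 0.18 (edgeR quasi-likelihood, adjusted p = 0.359). Erc2 and Cplx2 passed in edgeR only where the spread was shared over the 12 libraries (adjusted p = 0.0327 and 0.036).

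Unc13c encodes Munc13-3, a priming protein best known from cerebellar granule cells. It had 9.13, 16.8 and 11.8 CPM in Fst vector M1, M2 and F, against 6.19, 8.38 and 6.20 CPM in GFP vector M1, M2 and F. Rims3 encodes RIM3, a short RIM that carries only the last C2 domain. It had 21.0, 31.3 and 21.4 CPM in Fst vector M1, M2 and F, against 13.9, 19.8 and 10.4 CPM in GFP vector M1, M2 and F. For both genes M2 was the highest library of its group and every Fst vector library was above every GFP vector library. The log2 changes were 0.82 ± 0.26 for Unc13c and 0.71 ± 0.25 for Rims3 (edgeR quasi-likelihood, adjusted p = 0.374 and 0.431). With the share of ribosomal RNA, which was high in both M2 libraries, as a term they were 0.65 and 0.58. The other priming and active zone genes lay between -0.17 ± 0.19 (Pclo, Piccolo) and 0.03 ± 0.13 (Unc13a, Munc13-1), and the libraries of each overlapped between groups.

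Among vesicle proteins, Syn1, a synapsin that tethers vesicles in the reserve pool, had 340.4, 369.2 and 379.2 CPM in Fst vector M1, M2 and F, against 429.0, 415.8 and 487.7 CPM in GFP vector M1, M2 and F. Its log2 change was -0.33 ± 0.12 (edgeR quasi-likelihood, adjusted p = 0.445). Slc17a7, which fills vesicles with glutamate, had 1464, 1450 and 1424 CPM in Fst vector M1, M2 and F, against 1805, 1575 and 1931 CPM in GFP vector M1, M2 and F. Its log2 change was also -0.33 ± 0.13 (edgeR quasi-likelihood, adjusted p = 0.498). Both genes were highest in GFP vector F and lower in all Fst vector libraries.

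**Figure D2:**
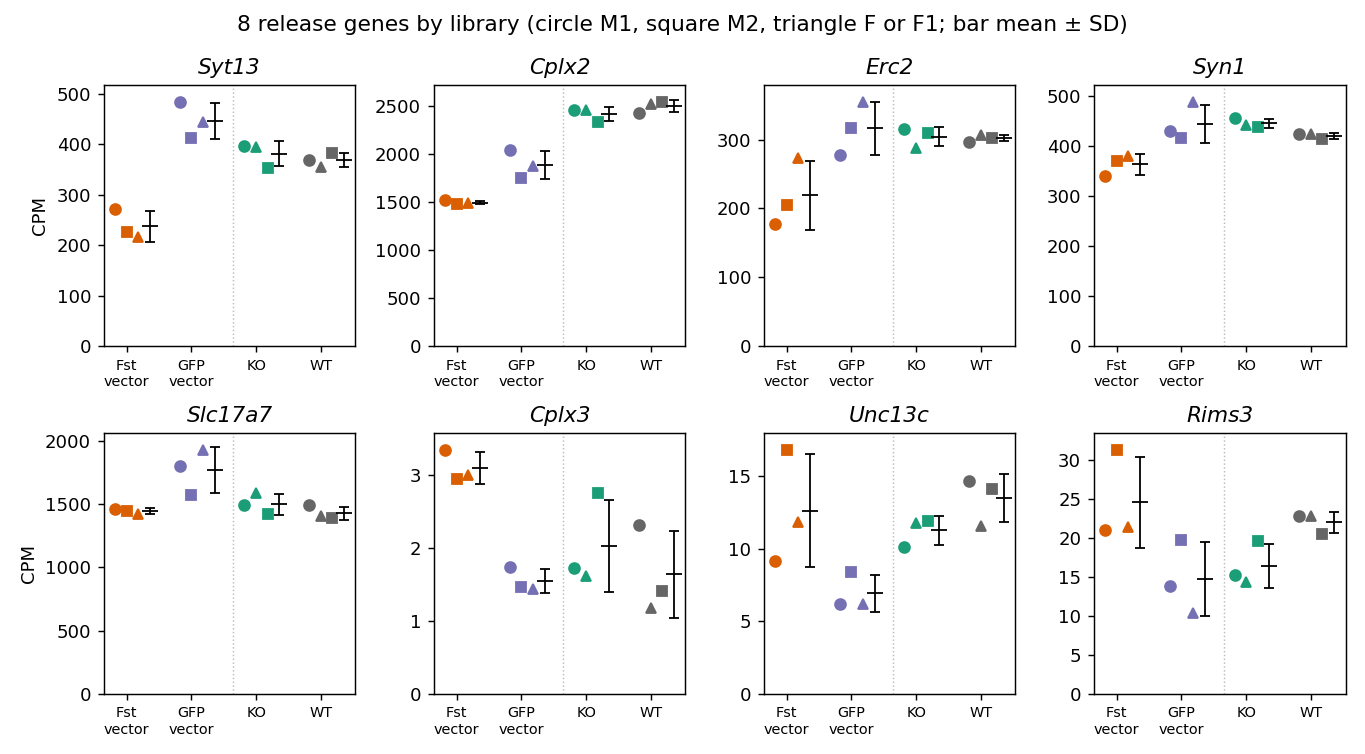
CPM of 8 release genes in each library, with M1 as circles, M2 as squares and F or F1 as triangles; bars give the group mean ± SD (n = 3). In the Fst vector group Syt13, Cplx2, Erc2, Syn1 and Slc17a7 lie below, and Cplx3, Unc13c and Rims3 above, all GFP vector libraries; the dotted line separates tables that were deposited apart.

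RefSeq promoter windows (GRCm38.p6) were matched for 29 of the 39 members, giving 40 windows of 250 bases ahead of an annotated start. Below are those of Erc2 (chr14:27622157-27622406, plus strand) and Syn1 (chrX:20921005-20921168, minus strand, stopped at an earlier annotated start), which were lower in each Fst vector library. Those of Rims3 (chr4:120854549-120854798, plus strand) and Unc13c (chr9:73969038-73969287, minus strand) are shown because these genes were higher there. Each is written 5′ to 3′, and capitals mark GGGCGG (the GC box), TGACG (part of the cyclic AMP response element) or CAGAC (the short site of SMAD factors, which carry activin signals), on either strand.
Erc2: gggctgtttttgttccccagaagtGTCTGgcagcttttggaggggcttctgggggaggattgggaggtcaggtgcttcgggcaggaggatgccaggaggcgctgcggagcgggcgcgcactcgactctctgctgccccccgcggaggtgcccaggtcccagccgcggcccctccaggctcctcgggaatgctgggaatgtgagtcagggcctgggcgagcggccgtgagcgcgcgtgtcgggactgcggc
Syn1: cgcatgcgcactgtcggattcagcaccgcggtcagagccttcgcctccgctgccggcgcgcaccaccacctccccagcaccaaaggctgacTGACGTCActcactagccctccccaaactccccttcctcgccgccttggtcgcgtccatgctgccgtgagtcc
Rims3: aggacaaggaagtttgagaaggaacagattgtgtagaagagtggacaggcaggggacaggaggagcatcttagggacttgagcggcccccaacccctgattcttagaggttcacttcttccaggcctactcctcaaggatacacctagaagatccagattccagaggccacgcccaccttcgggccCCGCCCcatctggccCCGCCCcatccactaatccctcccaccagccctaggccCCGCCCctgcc
Unc13c: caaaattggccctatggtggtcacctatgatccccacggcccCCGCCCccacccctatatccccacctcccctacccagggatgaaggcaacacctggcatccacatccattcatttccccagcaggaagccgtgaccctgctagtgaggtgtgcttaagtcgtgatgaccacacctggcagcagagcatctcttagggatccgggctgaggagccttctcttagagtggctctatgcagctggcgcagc

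GC boxes were found in windows of higher and of lower genes. There were 3 in Rims3 and 1 in Unc13c, both higher, and 3 in Slc17a7 and 1 in Cplx1, both lower, while Cplx3, which was higher, and Cplx2, Erc2 and Syn1, which were lower, had 0. The printed window of Syn1 held the full palindrome TGACGTCA, which overlaps TGACG on both strands, and that of Erc2 held 1 CAGAC. Searched on both strands of the whole 250 bases, GGGCGG was in 52.5% of the members' windows and 32.7% of all 32851 windows. CAGAC was in 42.5% against 42.2%, TGACG in 15.0% against 17.8%, TATAAA in 5.0% against 12.4%, and TGACGTCA in 2.5% against 1.55%. The SMAD palindrome GTCTAGAC was in none of the 40 windows and in 0.167% of all windows. These are matches of letters and were not tested.

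The core fusion machinery had small estimates in the vector comparison. The 6 SNARE and disassembly genes lay between -0.22 ± 0.18 (Napb, a SNAP protein that recruits NSF) and 0.06 ± 0.12 (Snap25), with overlapping libraries for each. Syt1, the fast calcium sensor of forebrain synapses, was at 0.16 ± 0.16, and Syt7, a slow sensor tied to facilitation, at -0.33 ± 0.19. In Syt7 the GFP vector group spread widely, from 602.2 CPM in F to 1010 CPM in M1, around 630.7 to 687.2 CPM in the Fst vector group. The other C2 domain genes lay between -0.33 ± 0.22 (Doc2b, a sensor of spontaneous release) and 0.09 ± 0.39 (Doc2a). Exons of Doc2a overlap those of Ino80e over 39.4% of their length, so reads there cannot be assigned without strand.

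The remaining vesicle genes had estimates from -0.68 ± 0.44 (Syn3) to 0.28 ± 0.32 (Sv2b), and overlapping libraries. Sv2c, a vesicle glycoprotein of restricted expression, varied most within groups, with 83.8, 148.8 and 227.8 CPM in Fst vector M1, M2 and F and 69.0, 143.4 and 328.4 CPM in GFP vector M1, M2 and F. Its F library was the highest in both groups. Slc17a6 was at 0.34 ± 0.39 and Slc17a8 at 0.04 ± 0.43, both from few counts.

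Counted together, 9 of 39 members (23.1%) had vector groups that did not overlap, 3 higher and 6 lower, against 16.5% of all genes tested. A change above 0 was found in 13 of 39 members, against 51.0% of all genes. The median change was -0.05 over the members and 0.01 over all genes. Without Fst vector M1, 20 of 39 members were above 0, against 48.85% of all genes, and the members' median was 0.01. Without GFP vector M2, 18 of 39 were above 0, against 50.02% of all genes. Scaling by library totals left 17 of 39 above 0, against 56.88% of all genes. The balance of direction thus depended on single libraries, most of all on Fst vector M1, and on the scaling. Fst vector M1 was the lowest of the 6 vector libraries in 13 members, among them Erc2, Syn1, Bsn, Pclo, Rims1 and Unc13a. All members together took 13280 to 14160 CPM in the Fst vector libraries and 14650 to 15170 CPM in the GFP vector libraries. Abundant genes weigh most in this sum. Cplx2 and Slc17a7 averaged 1492 and 1446 CPM in the Fst vector group against 1886 and 1770 CPM in the GFP vector group. Snap25 and Syt1 went the other way, at 1096 and 766.5 CPM against 1024 and 670.2 CPM.

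Lists of cell type markers were read in the vector groups as well, and edgeR called 0 markers of any list. The summed level of 7 oligodendrocyte markers was 1574 to 1875 CPM in the Fst vector group and 1196 to 1361 CPM in the GFP vector group. Of these, 7 of 7 estimates were above 0. All 7 microglial markers were below 0, but their sums overlapped. These sums were 206.9 to 270.7 CPM in the Fst vector group and 240.2 to 319.6 CPM in the GFP vector group. The 8 astrocyte markers summed to 3291 to 4286 CPM in the Fst vector group and 3212 to 8243 CPM in the GFP vector group, with the top value in GFP vector F. The 8 pan-neuronal markers summed to 3242 to 4507 CPM in the Fst vector group and 3303 to 4430 CPM in the GFP vector group, and 10 granule cell markers to 2105 to 2316 CPM in the Fst vector group and 1597 to 2447 CPM in the GFP vector group. Of the granule cell markers, 4 had an unadjusted p under 0.05, with Trpc6 (1.28 ± 0.28) and Stxbp6 (0.47 ± 0.17) above 0 and Dsp (-1.60 ± 0.54) and Prox1 (-0.35 ± 0.15) below 0. CA1 markers (5 genes) summed to 53.7 to 61.1 CPM in the Fst vector group and 68.2 to 85.6 CPM in the GFP vector group, without overlap. Most of that gap lay in Fibcd1, which averaged 4.36 CPM in the Fst vector group and 20.3 CPM in the GFP vector group (-2.24 ± 0.53). Wfs1, Man1a, Dcn and Pou3f1 lay between -0.19 ± 0.20 (Wfs1) and 0.17 ± 0.37 (Pou3f1), and 2 of the 5 estimates were above 0. Estimates were above 0 for 5 of 5 endothelial and 4 of 4 thalamus and habenula markers tested, with overlapping sums. Of mossy cell markers 4 of 5 were above 0, and of CA3 markers 1 of 5. Cajal-Retzius and newborn neuron markers had 3 of 4 and 2 of 4 above 0. The sums of these lists overlapped too. Interneuron markers (10 genes) summed to 803.1 to 989.6 CPM in the Fst vector group and 693.7 to 839.0 CPM in the GFP vector group. Their part in the members' differences was not tested. Between the M libraries alone, chosen after the F libraries were seen to stand apart, Syt13 was at -0.88 ± 0.19, Cplx3 at 0.94 ± 0.43, Erc2 at -0.67 ± 0.17 and Cplx2 at -0.38 ± 0.19, close to the estimates with all libraries. Unc13c and Rims3 were at 0.79 and 0.59. In that fit 8 of 39 members changed sign, and the members' median was -0.09.

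**Figure D3:**
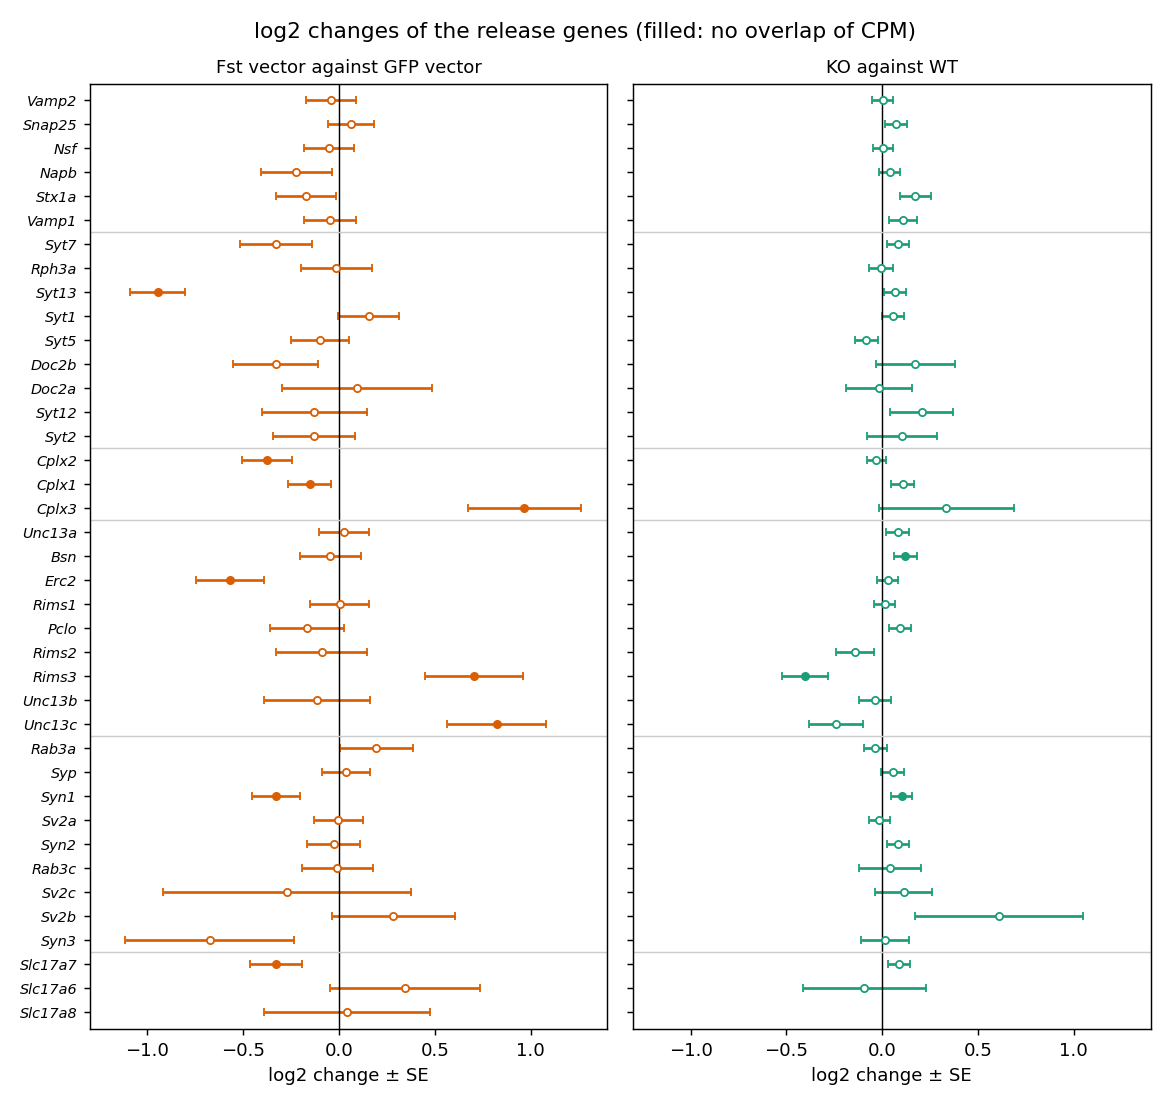
The log2 change ± SE of each member by role, for Fst vector against GFP vector (left) and KO against WT (right), with filled points where the CPM of the groups did not overlap. The vector comparison has 9 filled points and wider errors (median SE 0.184), and KO against WT has 3 filled points (median SE 0.0598).

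KO and WT were much closer to each other, and their members varied less. The median coefficient of variation over the 34 members with at least 10 CPM was 5.46% in KO and 4.12% in WT, against 15.5% in the Fst vector group and 11.6% in the GFP vector group. Of 38 members tested, 0 were called in edgeR's quasi-likelihood test, and 4 of 14919 genes (0.0268%) were called in all. Unadjusted p was under 0.05 in 3 of 38 members (7.89%), against 5.96% of all genes. DESeq2 also called 0 members, against 6 genes in all (0.0402%), and its unadjusted p was under 0.05 in 3 members, against 3.22% of all genes.

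Rims3 had the smallest p, with 15.2, 14.4 and 19.6 CPM in KO M1, F1 and M2, against 22.8, 22.7 and 20.5 CPM in WT M1, F1 and M2. Every KO library was below every WT library, although the gap between KO M2 and WT M2 was small. The log2 change was -0.40 ± 0.12 (95% interval -0.65 to -0.16; edgeR quasi-likelihood, adjusted p = 0.451). Unc13c lay on the same side, at 10.1, 11.8 and 11.9 CPM in KO M1, F1 and M2 against 14.7, 11.6 and 14.1 CPM in WT M1, F1 and M2. KO overlapped WT through WT F1, and the change was -0.24 ± 0.14 (edgeR quasi-likelihood, adjusted p = 0.929).

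Other members near the top of the KO comparison were higher by small amounts. Stx1a, a plasma membrane SNARE, had 60.8, 67.1 and 64.6 CPM in KO M1, F1 and M2, against 62.1, 58.0 and 52.8 CPM in WT M1, F1 and M2, a change of 0.17 ± 0.08 (edgeR quasi-likelihood, adjusted p = 0.822). Bsn encodes Bassoon, a giant active zone scaffold, and had 649.3, 710.0 and 654.8 CPM in KO M1, F1 and M2, against 633.3, 646.6 and 593.7 CPM in WT M1, F1 and M2. The KO libraries of Bsn were all above the WT libraries with a change of 0.12 ± 0.06 (edgeR quasi-likelihood, adjusted p = 0.837). Syn1 was likewise higher in each KO library, at 445.2 ± 9.23 CPM against 420.0 ± 5.51 CPM (SD, n = 3 each), a change of 0.10 ± 0.05 (edgeR quasi-likelihood, adjusted p = 0.884). Cplx1 was at 0.11 ± 0.06 (edgeR quasi-likelihood, adjusted p = 0.912), with 316.9 ± 15.4 CPM in KO and 297.8 ± 24.6 CPM in WT (SD, n = 3 each), and its libraries overlapped. WT M2 was the lowest of the 6 KO and WT libraries in 13 members, among them Stx1a, Bsn, Syn1 and Cplx1. Without WT M2 the changes of these genes were 0.11, 0.08, 0.09 and 0.05.

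In the other roles the KO estimates were small where counts were high. Vamp2, Nsf and Rph3a had changes of 0.00 ± 0.05, 0.00 ± 0.05 and -0.01 ± 0.06. Syt13, at 381.8 ± 24.7 CPM in KO and 368.8 ± 13.5 CPM in WT (SD, n = 3 each), was at 0.07 ± 0.06, with an interval of -0.05 to 0.18. Slc17a7 was at 0.09 ± 0.06, Cplx2 at -0.03 ± 0.05 and Erc2 at 0.03 ± 0.05. Sv2b had the largest estimate, 0.61 ± 0.44, and spread widely, with 53.9, 83.6 and 107.5 CPM in KO M1, F1 and M2 and 68.4, 63.7 and 31.2 CPM in WT M1, F1 and M2. Cplx3 was at 0.34 ± 0.35 and Slc17a6 at -0.09 ± 0.32, each from at most 27 counts per library. The members not yet named lay between -0.14 ± 0.10 (Rims2) and 0.21 ± 0.17 (Syt12), with overlapping libraries.

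A change above 0 was found in 27 of 38 members between KO and WT, against 49.7% of all genes. The median change was 0.06 over the members and -0.000849 over all genes. Scaling by library totals left 23 of 38 above 0, against 43.65% of all genes. Without WT M2, 27 of 38 were above 0, against 50.63% of all genes, and the members' median was 0.02. The groups did not overlap in 3 of 38 members (7.89%), against 11.0% of all genes. The members summed to 15970 to 16240 CPM in KO and 15600 to 15860 CPM in WT, and 8 pan-neuronal markers to 3476 to 3619 CPM in KO and 3303 to 3482 CPM in WT. Cajal-Retzius markers summed to 84.7 to 91.8 CPM in KO and 109.9 to 120.4 CPM in WT, newborn neuron markers to 108.8 to 110.8 CPM in KO and 125.0 to 126.4 CPM in WT, and interneuron markers to 714.7 to 809.9 CPM in KO and 785.5 to 871.7 CPM in WT. Their part in these values was not tested.

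The design sets loss of follistatin beside its delivery by a vector, so the 2 effects were compared in a fit of all 12 libraries. The difference was the Fst vector change minus the KO change, and opposite changes or 1 change alone can move it from 0. It was called for 1 of 39 members, Syt13, at -1.02 ± 0.15 (95% interval -1.35 to -0.69; edgeR quasi-likelihood, adjusted p = 0.00871), and for 44 of 15632 genes (0.281%). Without KO M1 or WT F1 the adjusted p for Syt13 in edgeR was 0.0557 or 0.0577. Before adjustment, p was under 0.05 in 7 of 39 members, against 9.95% of all genes. Beside Syt13 these were Rims3 (1.10 ± 0.30), Unc13c (1.06 ± 0.29), Syn1 (-0.44 ± 0.13), Erc2 (-0.60 ± 0.19), Slc17a7 (-0.42 ± 0.14) and Cplx2 (-0.35 ± 0.13).

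The comparisons share no libraries. Of 38 members tested in both, 25 (65.8%) had estimates of opposite sign, against 52.4% of 14576 genes, and 20 of the 38 (52.6%) were higher in KO and lower with the Fst vector, against 25.5% of all genes. Without Fst vector M1 these counts were 22 (57.9%, against 52.3% of all genes) and 15 (39.5%, against 26.5% of all genes). Members lay mostly above 0 in KO against WT (27 of 38) and mostly below 0 in Fst vector against GFP vector (26 of 39). Separate leanings of this kind raise both shares, by an amount that was not computed. A link between the comparisons was not tested. Rims3 had an unadjusted interval clear of 0 in both comparisons, below 0 in KO against WT and above 0 in Fst vector against GFP vector. It passed in neither (edgeR quasi-likelihood, adjusted p = 0.451 and 0.431). With the spread shared over the 12 libraries, 0 members had an unadjusted p under 0.05 in KO against WT. Cplx3, Sv2b, Snap25, Syt1, Syp, Unc13a and Rims1 were above 0 in both, and in KO against WT the interval of each included 0.

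**Figure D4:**
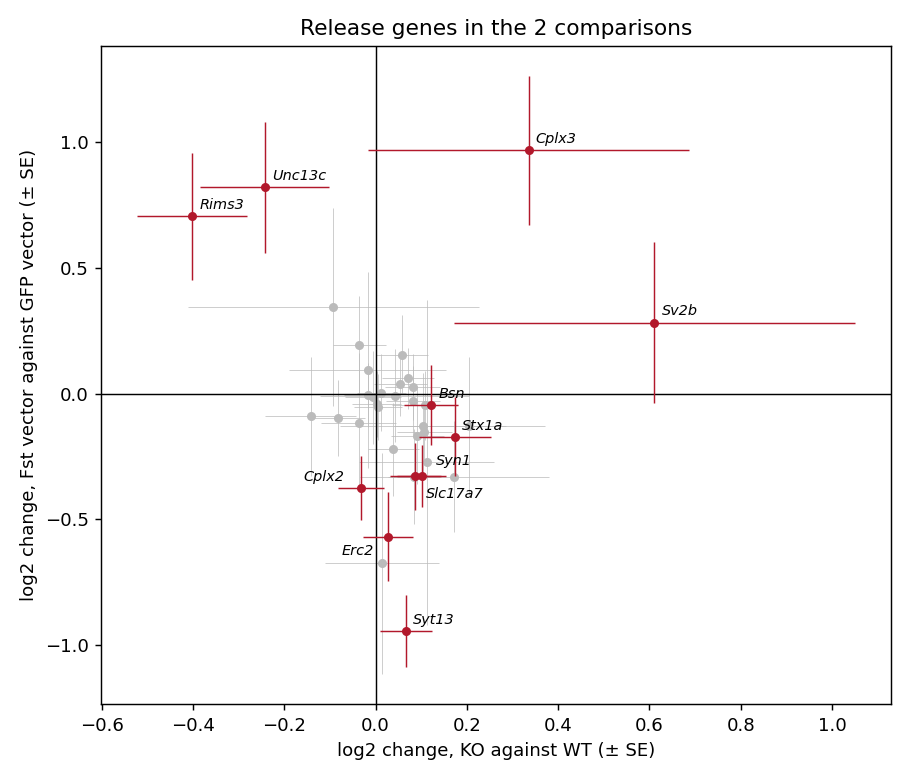
The log2 change of each of 38 members in KO against WT (horizontal) and in Fst vector against GFP vector (vertical), with SE bars; 11 genes are named. Syt13 is the lowest point on the vertical axis (-0.95), and Rims3 lies at -0.40 and 0.71.

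Other genes of release and recycling were read from lists. Of 32 further release genes, 0 were called in either comparison by edgeR, with 24 above 0 in KO against WT and 14 above 0 in Fst vector against GFP vector. Rimbp2, which links RIM to calcium channels, had the smallest p of this list in both. It averaged 339.3 CPM in KO against 283.5 CPM in WT (0.28 ± 0.07; edgeR quasi-likelihood, adjusted p = 0.209), and 247.9 CPM in the Fst vector group against 452.9 CPM in the GFP vector group (-0.91 ± 0.21; edgeR quasi-likelihood, adjusted p = 0.223). Next by p were Snap23 (0.30 ± 0.11) and Syt6 (0.42 ± 0.25) in KO against WT, and Stxbp5 (tomosyn, an inhibitor of SNARE assembly; -0.45 ± 0.13) and Rab3b (0.67 ± 0.23) in Fst vector against GFP vector.

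Of 22 tested genes of vesicle membrane, filling and recycling, 0 were called in either comparison by edgeR. In KO against WT 15 were above 0, and the smallest p values belonged to Sh3gl2, the endophilin of synaptic endocytosis (0.14 ± 0.06), Atp6v0a1, a proton pump subunit (0.13 ± 0.06), and Bin1 (0.12 ± 0.06). In Fst vector against GFP vector 10 were above 0, led by Syngr1, a synaptogyrin of the vesicle membrane, at 436.9 CPM in the Fst vector group against 317.2 CPM in the GFP vector group (0.43 ± 0.12; edgeR quasi-likelihood, adjusted p = 0.295). Ap2a1, an adaptor subunit of clathrin coats, followed at -0.33 ± 0.13, and Slc32a1, the transporter that fills vesicles with GABA, at 0.35 ± 0.16. Before adjustment, p was under 0.05 for 2 of the 32 release genes and 2 of the 22 recycling genes in KO against WT, and for 6 and 2 of them in Fst vector against GFP vector. Over all genes the shares were 5.96% in KO against WT and 9.51% in Fst vector against GFP vector.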

How the data were processed

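The authors deposited counts of reads for each Ensembl gene, per the file headers, with KO and WT in one table and the vector groups in another. The submitters' processing notes name GRCm38. Not given in the sources used here are the aligner, counting tool, annotation and strand. Lines that name no gene (6 and 12) held 0 counts and were left out. Symbols and exon lengths came from GENCODE M21.

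CPM were computed from library totals. A count of 3 equals 0.265 to 0.371 CPM, and such floors cover counting error only. Each comparison was fitted on its own 6 libraries with edgeR 4.0.16 (R 4.3.3), with TMM, filterByExpr, the robust quasi-likelihood test and Benjamini-Hochberg adjustment over all genes; the difference of the effects used all 12. The SE was taken as the absolute log2 change over the square root of the F statistic. Intervals of log2 changes were built on this SE, so they include the spread between libraries, which may be technical. The code was tested on simulated data.

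Members and lists were chosen with earlier results of these data known. Full values are given for members called in either comparison or in the difference, and for the 6 smallest p in each comparison; Cplx1, Sv2b, Sv2c and others were named after their values were seen. From lists, the 3 smallest p are named. Alternatives were no filter, library totals, DESeq2 1.42.0, a replicate block, sex, the share of ribosomal RNA, a shared spread and leaving out libraries. Same-named vector libraries correlated in their deviations (0.325 for M1, 0.138 for M2, 0.390 for F), so names were taken to pair them from the data. For M2 the value was close to the 0.119 between Fst vector M2 and GFP vector M1. No label states the pairing. Between KO and WT, same-named libraries gave 0.0607 for M1, 0.130 for F1 and -0.0805 for M2, and KO M1 with WT M2 gave 0.178.

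Paralogous members shared almost no transcript words of 31 bases. Exon overlap with other genes reached 39.4% in Doc2a, 17.2% in Syt12, 16.8% in Syp and 14.1% in Syn3.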

Additional observations from a re-analysis of the deposited data

Results flagged for a closer look

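Syt13 differed between the comparisons by the test of the difference itself, in a fit that shared the spread over the 12 libraries. Members varied less in KO and WT than in the vector groups, so the shared spread can be too small for the vector groups. In the fits of 6 libraries the change of Syt13 passed in neither comparison. It was -0.95 ± 0.14 in Fst vector against GFP vector (edgeR quasi-likelihood, adjusted p = 0.101) and 0.07 ± 0.06 in KO against WT. Its log2 change in Fst vector against GFP vector, less that in KO against WT, was -1.02 (SE 0.15; edgeR quasi-likelihood, adjusted p = 0.00871), with 3 of 3 Fst vector libraries below every GFP vector library and KO and WT libraries overlapping.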

How the results depend on the processing

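No member's direction was reversed past the threshold in any setting run. Members called in Fst vector against GFP vector numbered 0 as reported, 1 with no filter on low counts, DESeq2, the replicate block or sex as a term, and 3 with the spread shared over 12 libraries; the lone member was Syt13, which was not called when any single library was left out. In libraries of low ribosomal RNA share, added after the data were seen, Syt13 was at -0.79, in a fit with 1 Fst vector library that called no gene and so bears on no call. For the difference of the effects, 1 member was called (44 of 15632 genes), 3 with no filter (210 of 29564 genes), and 0 to 2 when libraries were left out (13 to 183 genes). Members above 0 numbered 12 to 20 of 39 in the vector comparison and 24 to 29 in KO against WT when libraries were left out. In KO against WT 0 members were called in every setting run.

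Calls over all genes depended on the setting, and the cause was not tested. In KO against WT, 4 genes were called as reported, 46 with no filter, 23 with the replicate block, 30 with sex as a term, 1 with the shared spread, 20 in the libraries of low ribosomal RNA share, and 2 to 17 without single libraries. In Fst vector against GFP vector, 12 were called as reported, 230 with no filter, 250 with DESeq2, 141 with the replicate block, 132 with sex as a term, 7 with ribosomal RNA share as a term, 412 with the shared spread, 0 in the libraries of low ribosomal RNA share (630 at an unadjusted p under 0.05), 27 in the M libraries alone, also added after the data were seen, and 1 to 29 without single libraries. In KO against WT the names did not pair the libraries, and the block called 0 members. Low counts limit Cplx3, Slc17a6 and Slc17a8.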

Other observations

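Genes induced by neuronal activity were read as a separate list of 12. In edgeR 0 were called in either comparison, with 8 above 0 in KO against WT (0 at an unadjusted p under 0.05) and 7 above 0 in Fst vector against GFP vector (1 at an unadjusted p under 0.05). Npas4, an early activity-induced factor, averaged 4.58 CPM in the Fst vector group and 1.90 CPM in the GFP vector group (1.25 ± 0.41; edgeR quasi-likelihood, adjusted p = 0.386), and Homer1 was at -0.38 ± 0.21 and Fosb at 0.44 ± 0.31. In KO against WT the smallest p values belonged to Arc (0.19 ± 0.10), Egr1 (-0.16 ± 0.09) and Nptx2 (0.18 ± 0.12).

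The list summed to 384.1, 366.6 and 597.5 CPM in Fst vector M1, M2 and F, and to 350.3, 398.4 and 814.6 CPM in GFP vector M1, M2 and F. Bdnf, a growth factor of mossy fibres, had 192.4 CPM in Fst vector F and 207.9 CPM in GFP vector F, against 73.4 to 125.3 CPM in the 4 M libraries of the vector groups. Sv2c, the member with the widest spread, was highest in the same F libraries. KO F1 and WT F1 had 54.6 and 60.8 CPM of Bdnf, the lowest of their groups.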
